A study of Homo sapiens with 4 samples.

Results

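The mRNAs examined were those of 6 genes, ARF1, JUN, IL7R, SOWAHC, XBP1 and KLF2, which had been reported in other cells as targets of Staufen-mediated decay or as bound by the RNA-binding protein STAU1. They were chosen for those reports and not for their values, although earlier results of these data were known. The 6 were matched by gene symbol to the Ensembl identifiers of a table that lists 67008 genes, of which 14303 had enough reads to be tested. RNA had been sequenced from SAS cells, which derive from a human squamous carcinoma of the tongue. Of the 4 libraries, 2 carried an shRNA that targets luciferase (shLuc) and are labelled Ctrl, and 2 carried an shRNA that targets STAU1 and are labelled shSTAU1. All 4 are labelled as virally infected and of genotype WT. Their labels also name the mouse line C3H 10T1/2, whereas the organism is given as human and the growth protocol names SAS cells. The comparison rests on a single shRNA against STAU1 in a single cell line, and nothing in the labels says that the libraries of a group came from separate cultures, so p-values measure only the spread between these libraries.

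STAU1 is a double-stranded RNA-binding protein. In Staufen-mediated decay, STAU1 sits on a paired stretch of the 3′ untranslated region (3′ UTR) downstream of the stop codon and recruits the helicase UPF1, and the mRNA is degraded when translation ends upstream of it. The paired stretch can form within the 3′ UTR, as reported for ARF1, or between a repeat element of the mRNA and a repeat element of a long noncoding RNA, as reported for SOWAHC. STAU1 also binds mRNAs without degrading them, and the binding reported for XBP1 was a duplex between distant parts of its 3′ UTR.

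The targeted gene was low in the shSTAU1 libraries. STAU1 stood at 248.7 and 251.0 CPM (counts relative to the library size, scaled with edgeR's TMM factors) in the Ctrl libraries and at 41.6 and 41.5 CPM in the shSTAU1 libraries, a log2 fold change of -2.59 (SE 0.13) with an adjusted p of 0.00103 in edgeR's quasi-likelihood test. Its paralog STAU2 averaged 15.0 ± 0.625 CPM (SD, n = 2) in Ctrl libraries, and the shSTAU1 libraries averaged 15.1 ± 1.63 CPM, with an adjusted p of 0.973. The libraries held 32206655 to 36301574 counts, and all 14 squamous epithelial marker genes were detected in numbers that could be tested. Of these 14, SFN (log2 fold change 1.43, adjusted p 0.0285) and KRT5 (0.65, adjusted p 0.0408) were called higher. LAMB3 (-0.84, adjusted p 0.0358) was called lower and 11 were not called, where 2.60% of all tested genes were called. The 8 fibroblast markers summed to 17.9 and 22.8 CPM in Ctrl and to 11.1 and 10.2 CPM in shSTAU1. COL3A1, DCN, LUM and THY1 had at most 1 count in any library, while COL1A1 carried most of the sum with 527 and 663 counts in Ctrl and 273 and 221 in shSTAU1 (log2 fold change -1.35, adjusted p 0.0360). COL1A2 had 40 to 128 counts and PDGFRA and PDGFRB had 2 to 23, and the part of these differences in the results was not tested.

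The 6 genes lie on 5 chromosomes in GRCh38, by GENCODE 29. ARF1 (ENSG00000143761) lies on the plus strand at chr1:228082660-228099212, and its 3′ UTR is at chr1:228098014-228099211. JUN (ENSG00000177606) is a gene of 1 exon on the minus strand at chr1:58780788-58784327, and its 3′ UTR is at chr1:58780788-58782074. IL7R (ENSG00000168685) has 8 exons on the plus strand at chr5:35852695-35879603, and its 3′ UTR is at chr5:35876487-35879603. SOWAHC (ENSG00000198142) is a gene of 1 exon on the plus strand at chr2:109614334-109618990, and its 3′ UTR is at chr2:109616068-109618990. XBP1 (ENSG00000100219) has 5 exons on the minus strand at chr22:28794555-28800597, and its 3′ UTR is at chr22:28794555-28795545. KLF2 (ENSG00000127528) has 3 exons on the plus strand at chr19:16324817-16327874, and its 3′ UTR is at chr19:16327032-16327874. These 3′ UTRs are those of 1 annotated coding transcript per gene, and the isoforms used in SAS cells were not measured.

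The 3′ UTRs differed in length and in base composition. Those of IL7R (3117 bases) and SOWAHC (2923 bases) were long, at percentiles 82.6 and 80.8 of the 11773 tested genes with an annotated 3′ UTR. Those of JUN (1287 bases), ARF1 (1198 bases), XBP1 (991 bases) and KLF2 (843 bases) lay near the median of 1117 bases. GC content ran from 34.6% in SOWAHC to 51.8% in ARF1, against a median of 41.9%.

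Because STAU1 binds paired RNA, the longest stem of unbroken Watson-Crick pairs within each 3′ UTR was located, with a loop of at least 3 bases. Pairs of G with U, interrupted stems and pairing with other RNAs were not counted. Among stems of equal length only the first one found was kept, so others with closer or more distant arms may exist. The pairs of arms are shown for ARF1, whose stem was the longest of the 6, and for XBP1, whose stem closes the shortest loop among those kept. Capitals mark the paired bases of this search, read 5′ to 3′ along the mRNA. The sites reported for STAU1 were not looked up here, so these capitals do not show where it binds.

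ARF1, chr1:228098426-228098437, plus strand: tttttaAAATAGTTAAGAatccaa

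ARF1, chr1:228099199-228099210, plus strand: aaaatcTCTTAACTATTTc

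XBP1, chr22:28794926-28794935, minus strand: ctacagCTTTTAAGATtgtact

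XBP1, chr22:28794907-28794916, minus strand: acttttATCTTAAAAGggtggt

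The ARF1 arms form 12 pairs and lie 761 bases apart, while the XBP1 arms form 10 pairs around a loop of 9 bases. With that short a loop, this XBP1 stem is not a duplex between distant parts of the 3′ UTR, as was reported for STAU1 binding. Stems of IL7R and SOWAHC had 11 pairs, and those of JUN and KLF2 had 10. Such stems are common. A stem of at least 12 pairs was found in 30.4% of the tested genes with a 3′ UTR and a stem of at least 10 pairs in 62.2%, with a median of 10 pairs, and a longer 3′ UTR offers more chances for one.

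SOWAHC was the member with Alu-like sequence in its 3′ UTR. Alu elements are primate repeats derived from 7SL RNA, and pairing between Alu elements of opposite orientation is a reported way to form a site for STAU1. The 3′ UTR of SOWAHC matched 7SL RNA over 79 aligned bases with 82.3% identity at chr2:109617738-109617815 and over 65 aligned bases with 86.2% identity at chr2:109617873-109617937, both on the same strand as 7SL. A further 23 bases at chr2:109617979-109618001 matched 7SL with 100% identity in the same orientation. Whether these stretches belong to a single Alu element was not tested. None of the other 5 mRNAs had a match of at least 50 aligned bases. Alu-like matches of that size were found in 20.5% of the tested genes with a 3′ UTR, on the same strand as 7SL in 12.8%. The 2414 genes with a match had a median log2 fold change of 0.01, against 0.03 for all tested genes with a 3′ UTR.

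Words of 7 bases, AAGAGAA and AGAGAAA, had been singled out in earlier results of these same data as words of genes that were lower in shSTAU1, so their presence here is a description only. JUN holds AGAGAAA and SOWAHC holds AAGAGAA, once each, as shown in capitals with the bases around them. Only the mRNA strand was searched.

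JUN, chr1:58781984-58781990, minus strand: agttgcgacggAGAGAAAaaagaagtgtcc

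SOWAHC, chr2:109616827-109616833, plus strand: aattttatttaAAGAGAAcacttagcagcc

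ARF1, IL7R, XBP1 and KLF2 hold neither word in these 3′ UTRs. The words overlap in 6 of their 7 letters. Of the tested genes with a 3′ UTR, 23.0% hold AAGAGAA, 25.3% hold AGAGAAA and 33.2% hold at least 1 of them.

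**Figure D1:**
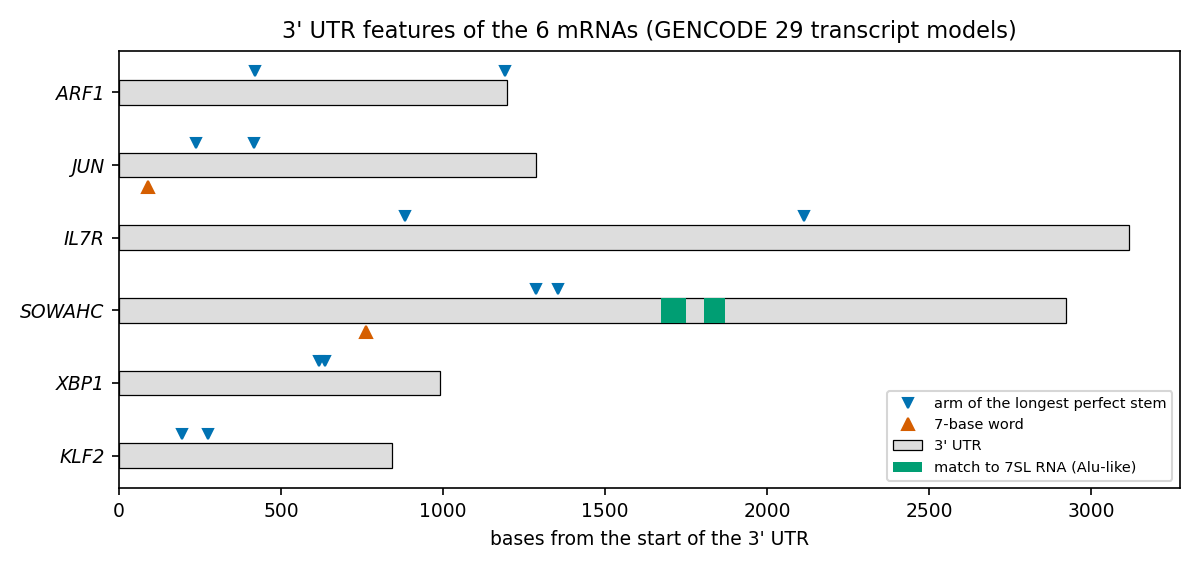
The 3′ UTR of each of the 6 mRNAs drawn to scale from the stop codon, in bases, with the arms of the longest perfect stem, the stretches matching 7SL RNA and the words AAGAGAA and AGAGAAA. The ARF1 arms lie 761 bases apart, the XBP1 arms close a loop of 9 bases, and SOWAHC alone carries 7SL-like stretches.

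The comparison of shSTAU1 with Ctrl cells asks whether mRNAs reported as bound or degraded through STAU1 differ in level when STAU1 is reduced. IL7R and ARF1 had higher mean levels in shSTAU1 cells, and JUN, XBP1, SOWAHC and KLF2 had lower ones. None of the 6 passed an adjusted p of 0.05 in edgeR's test, which called 2.60% of the tested genes (1.13% higher and 1.48% lower). At an unadjusted p under 0.05 there were 3, IL7R on the higher side and JUN and XBP1 on the lower, and 24.5% of the tested genes met that level (12.9% higher and 11.6% lower). At an adjusted p under 0.10 there were 2, IL7R and JUN, against 11.1% of the tested genes (5.85% higher and 5.23% lower). DESeq2 called 2 of the 6 and 12.0% of the genes it could adjust, and limma-voom called none of the 6 and 2.54% of the genes, while scaling by library size called none of the 6 and 2.82% of the genes.

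The groups did not overlap for any of the 6, which was also so for 56.6% of the tested genes (28.5% higher and 28.0% lower). KLF2 passed the low-count filter only through its Ctrl libraries, so it had to lie lower in shSTAU1 and does not count toward a direction. The median log2 fold change was -0.37 over the 6 and -0.23 without KLF2, against 0.01 for all tested genes, of which 49.6% were below 0. An exact permutation test of a single gene with 2 libraries against 2 cannot give a two-sided p under 0.333, so the tests rest on the spread estimated over all genes. In bulk RNA, fewer cells of a type and less RNA per cell cannot be told apart.

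IL7R, the receptor subunit shared by interleukin-7 and TSLP signalling and best known from lymphocytes, had the smallest p of the 6. It stood at 166.8 and 178.2 CPM in the Ctrl libraries and at 273.5 and 231.9 CPM in the shSTAU1 libraries, from 5609 to 9520 counts a library. Both shSTAU1 libraries lay above both Ctrl libraries, and the gap between the groups exceeded the spread within either. The fold was 1.46 (95% interval 1.18 to 1.82), a log2 fold change of 0.55 (SE 0.14) with an unadjusted p of 0.00408 and an adjusted p of 0.0700. There were 832 genes with a smaller p. At this depth and spread a fold of 1.59 would have passed. With DESeq2, which called 12.0% of the genes it could adjust, the adjusted p was 0.0143. Over the alternatives without a replicate block and with all 4 libraries, the adjusted p ran from 0.0143 to 0.152. Without shSTAU1 replicate 1 the log2 fold change was 0.43, and without shSTAU1 replicate 2 it was 0.65.

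ARF1, a small GTPase that recruits the COPI coat to Golgi membranes, is the mRNA in which Staufen-mediated decay was first described. It was at 53.6 and 54.8 CPM in Ctrl and at 60.4 and 75.4 CPM in shSTAU1. The Ctrl libraries were close together and the shSTAU1 libraries were both higher, but the latter differed by more from each other than the lower of them differed from Ctrl. The fold was 1.25 (95% interval 0.976 to 1.61) and the log2 fold change 0.32 (SE 0.15), with an adjusted p of 0.241. A fold of 1.70 would have passed. The value depended on the shSTAU1 library kept. Without shSTAU1 replicate 1 the log2 fold change was 0.48, and without shSTAU1 replicate 2 it was 0.14. Over the alternatives without a replicate block and with all 4 libraries, the adjusted p ran from 0.258 to 0.424. A processed pseudogene, ARF1P2, had 27 and 26 counts in Ctrl and 16 and 10 in shSTAU1, beside 1795 to 2665 counts of ARF1. How reads shared between them were counted is not known. The microRNA gene MIR3620 lies within ARF1 and had 0 counts.

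JUN, a subunit of the AP-1 transcription factor, was on the lower side in shSTAU1 cells. It stood at 50.3 and 41.3 CPM in Ctrl and at 29.1 and 33.1 CPM in shSTAU1. Both shSTAU1 libraries lay below both Ctrl libraries, and the Ctrl libraries differed from each other by about as much as the lower of them differed from the nearest shSTAU1 library. The fold was 0.679 (95% interval 0.520 to 0.887), a log2 fold change of -0.56 (SE 0.17) with an unadjusted p of 0.0105 and an adjusted p of 0.0976. The adjusted p was 0.0470 with DESeq2, which called 12.0% of the genes it could adjust. Over the alternatives without a replicate block and with all 4 libraries, the adjusted p ran up to 0.205. Without shSTAU1 replicate 2 the log2 fold change was -0.67, and without Ctrl replicate 1 it was -0.42. A fold of 1.77 in either direction would have passed.

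XBP1, the transcription factor activated when IRE1 splices its mRNA during endoplasmic reticulum stress, had 17.6 and 16.3 CPM in Ctrl and 12.5 and 11.3 CPM in shSTAU1. The libraries of each group were close together and the groups were apart. The fold was 0.703 (95% interval 0.521 to 0.948) and the log2 fold change -0.51 (SE 0.19), with an unadjusted p of 0.0265 and an adjusted p of 0.148, where a fold of 1.89 would have passed. The counts are of the whole gene, so the spliced and unspliced forms of XBP1 were not separated. The pseudogene XBP1P1 had 1 to 7 counts a library, against 399 to 592 for XBP1.

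SOWAHC, an ankyrin-repeat protein with no function widely agreed on, had 12.4 and 13.4 CPM in Ctrl and 11.4 and 10.6 CPM in shSTAU1. All 4 values lay within a narrow range, and the shSTAU1 values were the lower ones. The log2 fold change was -0.23 (SE 0.19) and the adjusted p 0.496. The 95% interval of the fold ran from 0.625 to 1.16, and it rests on 2 libraries a group that are not labelled as separate cultures.

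KLF2, a zinc-finger transcription factor known from endothelium, T cells and the restraint of fat cell formation, was hardly detected. The Ctrl libraries held 14 and 12 of its counts and the shSTAU1 libraries 9 and 5, or 0.391 ± 0.0352 and 0.200 ± 0.0828 CPM (SD, n = 2 each). The fold was 0.515 with a 95% interval from 0.171 to 1.55, and the adjusted p was 0.418. At the standard error of these counts a difference of 10.5-fold was needed to pass, a limit that need not hold for a rise. At this depth KLF2 gives no usable comparison.

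**Figure D2:**
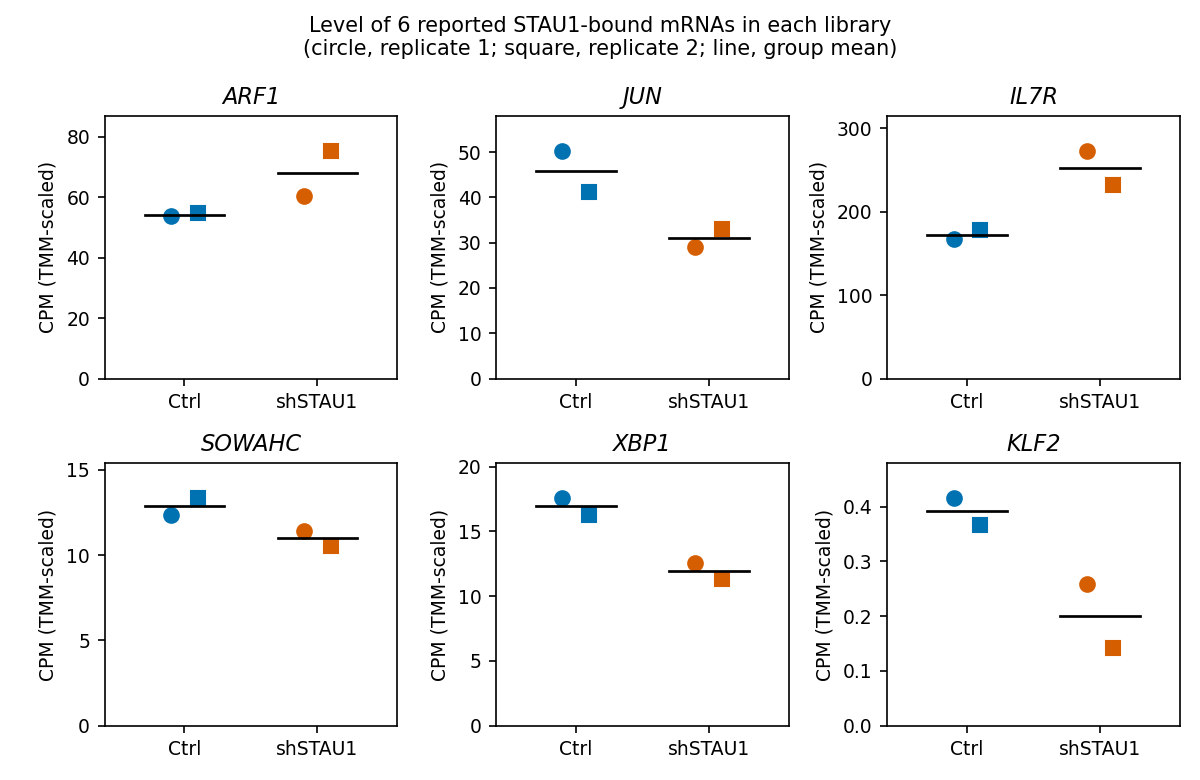
CPM of each of the 6 mRNAs in each library, with the axis of each panel starting at 0; circles are replicate 1, squares replicate 2 and lines the group means of 2 libraries. IL7R and ARF1 are higher in both shSTAU1 libraries, and JUN, XBP1, SOWAHC and KLF2 are lower in both, with KLF2 below 0.5 CPM throughout.

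**Figure D3:**
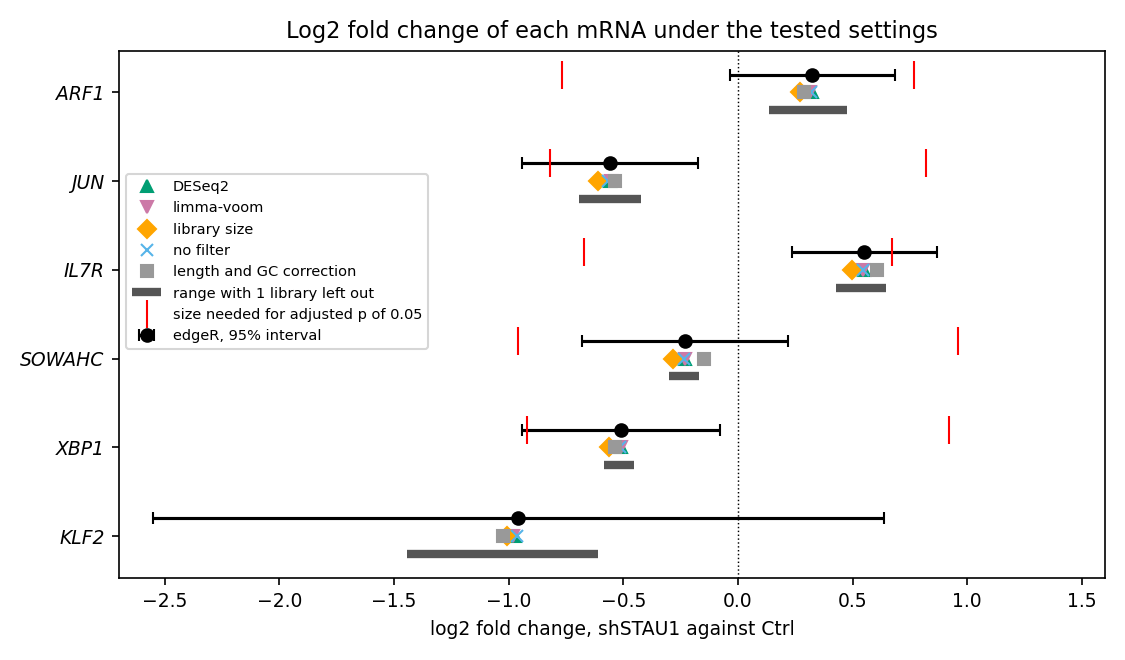
Log2 fold change (shSTAU1 against Ctrl) of each mRNA by edgeR with its 95% interval, beside the values from 5 other settings and the range with 1 library left out; red ticks mark the size needed for an adjusted p of 0.05 and lie outside the plot for KLF2. No point crosses 0 for any of the 6, whose groups did not overlap, and each edgeR value lies inside its ticks.

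Scaled per kilobase of merged exons, the order of the 6 in Ctrl cells was IL7R at 28.5 ± 1.34, ARF1 at 16.5 ± 0.260, JUN at 12.9 ± 1.81, XBP1 at 5.60 ± 0.310, SOWAHC at 2.76 ± 0.153 and KLF2 at 0.194 ± 0.0175 CPM per kilobase (SD, n = 2). The ranges of neighbours in that order did not overlap, although 2 libraries a gene cannot show a difference by an exact test. These levels spanned most of the range of expression, from percentile 92.6 of the tested genes for IL7R to percentile 6.88 for KLF2. In shSTAU1 cells the order was the same, from 41.7 ± 4.85 CPM per kilobase for IL7R to 0.0991 ± 0.0410 for KLF2. The libraries were made with a kit that captures coding exons with probes, so levels of different genes also depend on their probes. With the longest transcript as the length, IL7R was at 37.3, ARF1 at 27.0 and XBP1 at 7.80 CPM per kilobase in Ctrl, and the order was unchanged.

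IL7R is best known from lymphocytes, and 10 markers of those and other leukocytes were counted beside it. They summed to 1.34 and 2.29 CPM in Ctrl and to 2.15 and 1.16 CPM in shSTAU1, with overlapping groups. CD2, CD3D, CD4 and CD68 had 0 counts in all 4 libraries and PTPRC had 1 count in 1 library. Most of the sum came from CD8A, with 43 and 48 counts in Ctrl and 65 and 21 in shSTAU1 (adjusted p 0.891), and from ITGAM, with 1 and 27 counts in Ctrl and 3 and 10 in shSTAU1. CD3E had 10 counts and CD3G 7 counts, each in a single shSTAU1 library. The summed levels of the 7 endothelial markers were 23.3 and 19.5 CPM in Ctrl and 21.2 and 11.0 CPM in shSTAU1, chiefly from VWF (3.11 to 13.6 CPM a library), CDH5 (4.30 to 7.02 CPM) and EGFL7 (101 to 175 counts), none of which passed the test. PECAM1 had at most 1 count a library and CLDN5 had 0. The shSTAU1 replicate 2 library had the lowest sum, and the part of this in the KLF2 values was not tested.

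The genes around each of these mRNAs were examined as lists of pathway partners and are described by their counts and medians. Over all tested genes the median log2 fold change was 0.01. Among 16 Staufen and nonsense-mediated decay factors, 2 were called lower, STAU1 itself and SMG5, and none higher, against 2.60% of all tested genes. SMG5, which helps remove phosphate from UPF1, stood at 151.1 and 158.6 CPM in Ctrl and at 90.5 and 103.4 CPM in shSTAU1 (log2 fold change -0.68, adjusted p 0.0467), and it did not pass under the correction for length and GC. DCP1A, a decapping cofactor, was at 48.2 and 42.0 CPM in Ctrl and 69.0 and 73.9 CPM in shSTAU1 (adjusted p 0.0568). Under the correction for length and GC, DCP1A was called higher (log2 fold change 0.76, adjusted p 0.0475), where 319 of the 14303 tested genes were called. UPF1, the helicase of the pathway, was at 93.7 and 113.4 CPM in Ctrl and 72.6 and 95.4 CPM in shSTAU1, with overlapping groups and an adjusted p of 0.325. The list split into 8 genes above 0 and 8 below, with a median log2 fold change of -0.02. DESeq2 called 4 of them, STAU1, SMG5, SMG6 and DCP1A, beside 12.0% of all genes it could adjust.

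Of 23 ARF GTPases, their regulators and COPI coat subunits, all tested, edgeR called 0, with 1 higher (ARF5) and 1 lower (CYTH1) at an unadjusted p under 0.05, a level met on the higher side by 12.9% and on the lower side by 11.6% of all tested genes. DESeq2 called ARF5, beside 12.0% of all genes it could adjust, and limma-voom called 0. The median log2 fold change was 0.11, or 0.04 without ARF1. ARF5, another GTPase of the family, was at 43.1 and 36.6 CPM in Ctrl and 63.4 and 56.9 CPM in shSTAU1 (log2 fold change 0.59, adjusted p 0.0753). CYTH1, an exchange factor for ARFs, was at 19.1 and 15.5 CPM in Ctrl and 12.2 and 9.59 CPM in shSTAU1 (adjusted p 0.116). ARF4, ARF6 and ARF3 had log2 fold changes of -0.05, 0.14 and 0.47, and for ARF4 and ARF6 the groups overlapped. Per kilobase, ARF1 at 16.5 CPM in Ctrl ranked below ARF4 (35.0) and ARF5 (21.3) and above ARF6 (9.17) and ARF3 (0.276).

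Of 18 AP-1 subunits and JNK pathway kinases, 15 were tested and edgeR called 0, with 3 higher and 2 lower at an unadjusted p under 0.05 (12.9% and 11.6% of all tested genes). DESeq2 called JUN, beside 12.0% of all genes it could adjust, and limma-voom called 0. The values of the AP-1 subunits lay on both sides of 0. JUNB was at 12.3 and 9.90 CPM in Ctrl and 18.4 and 14.2 CPM in shSTAU1 (log2 fold change 0.56, adjusted p 0.176), the opposite sign to JUN. FOSL1 was at 40.2 and 32.6 CPM against 48.0 and 41.1 CPM (adjusted p 0.326), and JUND overlapped between the groups (log2 fold change -0.02). ATF3, a stress-induced partner of JUN, was the lowest of the list at a log2 fold change of -0.97 (adjusted p 0.121). FOSB was the highest, from 6 and 4 counts to 13 and 21 counts (adjusted p 0.196), and as it passed the low-count filter only through the shSTAU1 libraries it had to lie higher. It is 1 of the 3 on the higher side. The median log2 fold change of the list was 0.18.

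Of 16 genes of IL7R and TSLP receptor signalling, 12 were tested and edgeR called 0, with 3 higher and 1 lower at an unadjusted p under 0.05 (all tested genes, 12.9% and 11.6%). The 3 were IL7R, the kinase JAK1 and the transcription factor STAT5B, which acts downstream of the receptor. JAK1 was at 129.0 and 115.5 CPM in Ctrl and 187.8 and 151.1 CPM in shSTAU1 (log2 fold change 0.47, adjusted p 0.114). STAT5B was at 57.1 and 50.2 CPM in Ctrl and 92.3 and 77.6 CPM in shSTAU1 (log2 fold change 0.66, adjusted p 0.0625). SOCS3, a feedback inhibitor of JAK signalling, was the gene on the lower side, from 5.23 and 5.16 CPM to 1.87 and 2.94 CPM (log2 fold change -1.11, adjusted p 0.0926). DESeq2 called IL7R and STAT5B, beside 12.0% of all genes it could adjust, and limma-voom called 0. Of the 12, 7 were below 0, with a median log2 fold change of -0.07.

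Other chains and the ligands of the receptor had few or no counts in this table. The common gamma chain IL2RG and the TSLP receptor chain CRLF2 had 0 counts in all 4 libraries, where 3 counts would be 0.0849 to 0.0916 CPM. CRLF2 lies in the pseudoautosomal region of the sex chromosomes, where reads may be split between copies. Since the kit captures with probes and the counting is not described, 0 counts need not mean that an RNA was absent. The ligand IL7 had 2 and 2 counts in Ctrl and 0 and 0 in shSTAU1, and TSLP had 12 and 17 counts against 14 and 5. JAK3, the kinase that pairs with IL2RG, had the highest log2 fold change of the list, 0.97, from 13 and 0 counts in Ctrl and 11 and 16 counts in shSTAU1, with overlapping groups and an adjusted p of 0.631.

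Of the 4 SOWAH genes, 2 were tested, and edgeR, DESeq2 and limma-voom called 0, with 0 at an unadjusted p under 0.05. SOWAHB had 17 and 14 counts in Ctrl and 10 and 8 in shSTAU1 (log2 fold change -0.85, adjusted p 0.429), and as it passed the low-count filter only through the Ctrl libraries it had to lie lower. SOWAHA had at most 3 counts a library and SOWAHD had 0. SOWAHC was thus the family member with reads enough to compare.

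Of 17 genes of the IRE1 and XBP1 branch of the unfolded protein response, 16 were tested and edgeR called 0. At an unadjusted p under 0.05 there were 4 lower and 0 higher, where 11.6% of all tested genes were lower and 12.9% higher. The 4 were XBP1, ERN1, SEL1L and SEC24D, named after their values were seen. ERN1, which encodes the IRE1 sensor that splices XBP1, was at 11.2 and 9.56 CPM in Ctrl and 7.58 and 4.81 CPM in shSTAU1 (log2 fold change -0.74, adjusted p 0.151). SEL1L, of the degradation machinery of the endoplasmic reticulum, was at 89.3 and 84.7 CPM against 62.0 and 55.2 CPM (log2 fold change -0.57, adjusted p 0.0656). SEC24D, a COPII coat subunit, was at 54.0 and 48.0 CPM against 33.6 and 32.9 CPM (log2 fold change -0.62, adjusted p 0.0654). DESeq2 called SEL1L and SEC24D, beside 12.0% of all genes it could adjust, and limma-voom called 0. At the other end, CRELD2 was at 8.33 and 10.6 CPM against 11.1 and 14.3 CPM (log2 fold change 0.43, adjusted p 0.297). In all, 10 of the 16 were below 0, with a median log2 fold change of -0.13.

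Of 22 KLF, MEK5, ERK5 and MEF2 genes, 15 were tested and edgeR, DESeq2 and limma-voom called 0, with 1 lower (KLF4) and 0 higher at an unadjusted p under 0.05, against 11.6% and 12.9% of all tested genes. KLF4 had 76 and 38 counts in Ctrl and 30 and 19 in shSTAU1 (log2 fold change -1.29, adjusted p 0.182). The abundant members of the family had values on both sides of 0, KLF6 from 182.0 and 155.3 CPM to 151.2 and 119.3 CPM (adjusted p 0.262) and KLF5 from 51.8 and 41.8 CPM to 70.1 and 52.9 CPM (adjusted p 0.238). KLF11 had the highest log2 fold change of the list, 0.51 (adjusted p 0.227). Per kilobase, KLF2 at 0.194 CPM in Ctrl lay below KLF4 (0.467), KLF5 (12.0) and KLF6 (27.5). Of the 15, 9 were below 0, with a median log2 fold change of -0.07.

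**Figure D4:**
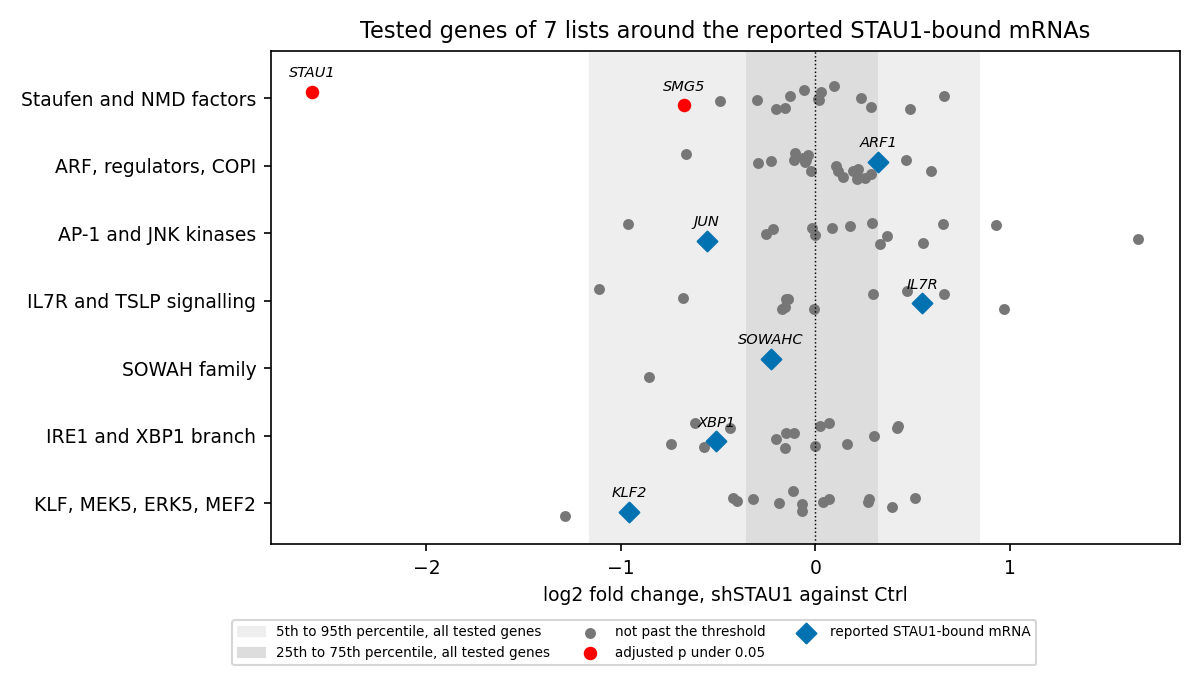
Log2 fold change (shSTAU1 against Ctrl) of the tested genes of 7 lists around the 6 mRNAs, with these 6 as blue diamonds, genes past an adjusted p of 0.05 in red and grey bands for the percentiles of all tested genes; points are spread vertically only to separate them. Most genes of every list lie within the band from the 5th to the 95th percentile, -1.16 to 0.84, and STAU1 at -2.59 lies far outside it.

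The genes most like each mRNA over the 4 libraries were found by the Euclidean distance between log2 CPM values centred on their own mean, among 11625 genes with a symbol and at least 1 CPM on average. With 4 libraries a small distance is easily found, so these names are a description. ARF1 was nearest to PSMD12, SPDL1 and CCT4, at distances of 0.0156 to 0.0215 log2 units. IL7R was nearest to TMEM67 and RNFT1, at 0.0381 and 0.0488. JUN was nearest to SMAGP, WASH9P and HSPA5, at 0.0591 to 0.0687. SOWAHC was nearest to RHOBTB3, LATS1 and DDRGK1, at 0.0170 to 0.0283. XBP1 was nearest to MFSD8, ZNF841 and CDK17, at 0.0304 to 0.0354. KLF2 was nearest to CRELD1, UNGP3 and MXRA5, at 0.0508 to 0.0603. None of the genes named here as nearest passed an adjusted p of 0.05.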

How the data were processed

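The authors deposited reads counted per gene, as whole-number counts without normalization, for 2 Ctrl and 2 shSTAU1 libraries. RNA was extracted with Trizol and libraries were made with an exome-capture RNA kit. The submitters' processing notes name Partek and hg38 without a role. How reads were aligned and counted, and with which strand setting, is not given in the sources used here. Every sample column was mapped from its shRNA label (0 left over). Replicates differed beyond the noise of sampling (chi-square of 23.4 per degree of freedom in Ctrl and 56.4 in shSTAU1) and were kept apart. Intervals and limits at 0 counts cover counting error only where they are not from the fit.

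The deposited counts were fitted with edgeR 4.0.16 in R 4.3.3 (filterByExpr at its defaults, with a minimum count of 10, TMM scaling, quasi-likelihood test over all 14303 tested genes, Benjamini-Hochberg adjustment, threshold 0.05). The tested genes held 99.9% of the counts, and the biological coefficient of variation was 19.1%. The models were tested on simulated data first. Alternatives were DESeq2 1.42.0, limma-voom (limma 3.58.1), no filter, scaling by library size, the replicate number as a block, natural splines correcting each library for transcript length and GC content (99.0% of tested genes), both of the latter together, other thresholds and leaving out each library. Identifiers were matched to GENCODE 29 on GRCh38 (58561 of 67008), and 3′ UTRs were scanned in Python 3.11.15 and with blastn 2.17.0.

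The genes, lists, words and alternatives were chosen with earlier results of these data known. Named from the lists were genes past the threshold, otherwise the highest and lowest log2 fold change, and fixed relatives of the 6 genes. DCP1A, SMG6, UPF1, JAK1 and STAT5B were added after their values were seen. Some items that these rules cover are not reported here.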

Additional observations from a re-analysis of the deposited data

How the results depend on the processing

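All 6 mRNAs kept the sign of their log2 fold change under every alternative run, which could hardly have come out otherwise. The groups did not overlap for any of the 6, the alternatives refit the same counts, and KLF2 had to lie lower. Of the 6, 2 passed with DESeq2 (JUN -0.56, adjusted p 0.0470, and IL7R 0.55, adjusted p 0.0143) and 2 at an adjusted p under 0.10. Leaving out 1 library moved the log2 fold change over 0.14 to 0.48 for ARF1, -0.69 to -0.42 for JUN, 0.43 to 0.65 for IL7R, -0.30 to -0.17 for SOWAHC, -0.59 to -0.46 for XBP1 and -1.44 to -0.61 for KLF2. The number of all genes called was 372, and became 1449 with DESeq2, 11 without the filter, 1585 at an adjusted p under 0.10, 2098 at a fold of 1.5 with an unadjusted p under 0.05, and 214 to 2625 with 1 library left out (214 without Ctrl replicate 1, 226 without Ctrl replicate 2, 2625 without shSTAU1 replicate 1 and 1734 without shSTAU1 replicate 2). The cause of these shifts was not tested. With DESeq2 the calls were 12.0% of the genes it could adjust, the share to set beside its calls in the lists. Of the Staufen and nonsense-mediated decay factors 2 were called, and this became 4 with DESeq2 and 1 without the filter. From 0 calls, DESeq2 gave 1 among the ARF genes, 1 among the AP-1 genes, 2 among the IL7R genes and 2 in the XBP1 branch. The length and GC correction gave 1 among the IL7R genes, STAT5B, beside 319 of the 14303 tested genes. Library size in place of TMM shifted the median of all genes to -0.05 and changed no call among the 6. At a fold of 1.5 with an unadjusted p under 0.05, 0 of the 6 passed. With the longest transcript as the length, ARF1, IL7R and XBP1 moved to 27.0, 37.3 and 7.80 CPM per kilobase. Fewer than 15 counts a library limit what can be said of KLF2.

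The labels number the libraries 1 and 2 in both groups without saying that a number marks a shared culture or batch, and deviations of same-numbered libraries correlated at 0.27. In a fit with the replicate block, 4087 of the 14303 tested genes were called (28.6%). Beside that share, 4 of the 6 passed, ARF1 (0.32, adjusted p 0.0422), JUN (-0.55, adjusted p 0.000542), IL7R (0.55, adjusted p 2.14e-05) and XBP1 (-0.51, adjusted p 0.0219). With the replicate block and the length and GC correction, 3856 of the 14303 tested genes were called, and 3 of the 6 passed, JUN (-0.54), IL7R (0.60) and XBP1 (-0.54). Beside 28.6% of all tested genes, the block alone gave 7 calls among the 16 decay factors and 4 among the 23 ARF genes. It gave 4 each among the tested AP-1 (15), IL7R (12) and KLF (15) genes, and 5 among 16 of the XBP1 branch. With the correction there were 6 among the decay factors, then 3 (ARF), 4 (AP-1), 4 (IL7R), 4 (KLF) and 5 (XBP1 branch).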
